A study of Mus musculus with 23 samples.

Results

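The ubiquitin-conjugating enzymes, or E2 enzymes, were described in laser-cut tissue of the hippocampal CA3 region of UBB+1 tg mice and wild-type mice. The genes were taken by name: all genes whose symbol begins with Ube2, together with Cdc34 and Birc6, for which at least 1 probe set of the array is annotated to that gene alone. This rule gave 35 genes with 91 of the 45136 probe sets tested. Of these, 54 probe sets for 29 genes were on the MOE430A array, 37 probe sets for 22 genes were on the MOE430B array, and 16 genes had probe sets on both. Ube2l3 is named only by 4 probe sets that also name other genes and was not counted. All 35 are called E2 genes below, although a name does not show that a gene encodes an E2 enzyme.

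UBB+1 tg mice are heterozygous for a transgene that encodes UBB+1, a frameshifted ubiquitin whose altered C terminus cannot be joined to substrates, and the wild-type mice were littermates without the transgene. A single transgenic line was used, on a C57BL/6J background shared by both genotypes, with the transgene driven by the CaMK2α promoter, which is active in excitatory neurons of the forebrain and not in all cells of the cut tissue. The mice were 18 months old, and their sex is not given in the sources used here. MOE430A was measured in 6 UBB+1 tg and 5 wild-type mice and MOE430B in 6 UBB+1 tg and 6 wild-type mice, with 11 animals on both arrays and 1 wild-type mouse, wt331, on MOE430B only. Each array held RNA of 1 mouse, amplified in 2 rounds from 5 ng of total RNA.

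An E1 enzyme activates ubiquitin and hands it to a cysteine of an E2 enzyme, and the E2 enzyme together with an E3 ligase passes it on to the substrate. The E2 enzyme often sets the kind of chain that is built: chains linked through the lysine K48 of ubiquitin mark proteins for the proteasome, and chains linked through the lysine K63 act in signalling and membrane traffic. In the brain these steps serve protein turnover at synapses and quality control, and UBB+1, which itself is ubiquitinated but blocks the proteasome at high levels, accumulates in neurons in Alzheimer's disease.

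The values are log2 intensities from RMA, the authors' normalization, in which 1 unit is a doubling, and a log2 fold change is the mean of UBB+1 tg minus the mean of wild type. The probe set that detects part of the promoter of the transgene was at 8.45 to 9.34 in UBB+1 tg and at 6.41 to 6.85 in wild type, so that all 11 arrays matched their labels. The number of animals limits the precision. The arrays were grouped into sets by overall correlation. The sets were named low, middle and high by the mean 3'-5' difference of the control probe sets for Gapdh and β-actin, so that this order is fixed by the naming. The 3'-5' difference is a measure of RNA integrity and of the length of the amplified product. On MOE430A the low set held tg271, wt287 and wt290 with differences of 2.65 to 3.43, the middle set held 4 UBB+1 tg and 2 wild-type mice with 4.44 to 4.62, and the high set held tg270 and wt289 with 6.05 to 6.10. The 3'-5' difference averaged 4.61 ± 0.83 in UBB+1 tg and 4.10 ± 1.45 in wild type (SD, n = 6 and 5, p = 0.435, exact permutation test, two-sided, 462 splits). The neuron markers were at 5 of 5 above the 25th percentile of the array, as was the CA3 marker Bok on MOE430A and the CA3 marker Grik4 on MOE430B. So were, on MOE430A, the CA1 marker Wfs1, 3 of 3 CA2 markers and 3 of 4 of dentate granule cells. The same held for 6 of 6 interneuron, 5 of 5 astrocyte, 6 of 6 microglia and 3 of 5 endothelium markers. This threshold therefore does not separate CA3 from other fields or cell types. The summed level of the neuron markers on MOE430A was 13.11 to 13.43 in UBB+1 tg and 12.70 to 13.26 in wild type (p = 0.067, exact permutation test), and that of the oligodendrocyte markers, of which 3 of 4 were above the 25th percentile, was 12.43 to 12.89 in UBB+1 tg and 12.16 to 12.55 in wild type (p = 0.089, exact permutation test). In such tissue, fewer cells of a type and less RNA per cell cannot be told apart.

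At a false discovery rate of 10% (limma), no probe set of an E2 gene was called, on MOE430A or on MOE430B. Over the whole arrays, 0% of 22625 probe sets on MOE430A and 0% of 22511 on MOE430B were called. The lowest adjusted p among the E2 genes was 0.984 on MOE430A and 1.00 on MOE430B. At an unadjusted p under 0.05, 2 of 54 E2 probe sets were called on MOE430A (3.7%), of which 1 was higher in the UBB+1 tg mice and 1 was lower, beside 3.48% of all probe sets (1.91% higher and 1.57% lower). The count of 2 was 0 without tg276, wt287 or wt290, 1 without tg273 and 4 without wt291. On MOE430B 0 of 37 were called, beside 3.05% of all. The share of E2 probe sets called was therefore close to that of the array, and the calls below are descriptions of the probe sets with the lowest p.

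The fold changes of the E2 probe sets were small. On MOE430A they ran from -0.61 to 0.47 with a median of 0.03, beside a median of 0.005 over all probe sets, and on MOE430B from -0.31 to 0.60 with a median of 0.001, beside -0.005. Higher means in UBB+1 tg were found for 31 of 54 E2 probe sets on MOE430A (57.4%), beside 51.7% of all probe sets, and for 19 of 37 on MOE430B (51.4%), beside 47.6%. In a fit that holds the array sets described above as a block, 25 of 54 were higher on MOE430A (46.3%), beside 51.9% of all, at a median of -0.01, and 20 of 37 on MOE430B (54.1%), beside 49.4%, at a median of 0.02. A difference of 1.5-fold or more was reached by 2 of 54 on MOE430A, Ube2b 1423107_at and Ube2a 1448772_at, beside 1.68% of all, and by 1 of 37 on MOE430B, Ube2d-ps 1438285_at, beside 0.56%. No E2 probe set had all animals of a genotype above or below all animals of the other, which 0.115% (higher) and 0.119% (lower) of all probe sets had on MOE430A and 0.0622% and 0.08% on MOE430B. The 95% confidence interval of the difference lay within 1.5-fold in both directions for 33 of 54 E2 probe sets on MOE430A (61.1%), beside 73% of all, and for 27 of 37 on MOE430B (73.0%), beside 86.5%. For the remaining 21 and 10 E2 probe sets a change of 1.5-fold in at least 1 direction was within the interval.

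**Figure D1:**
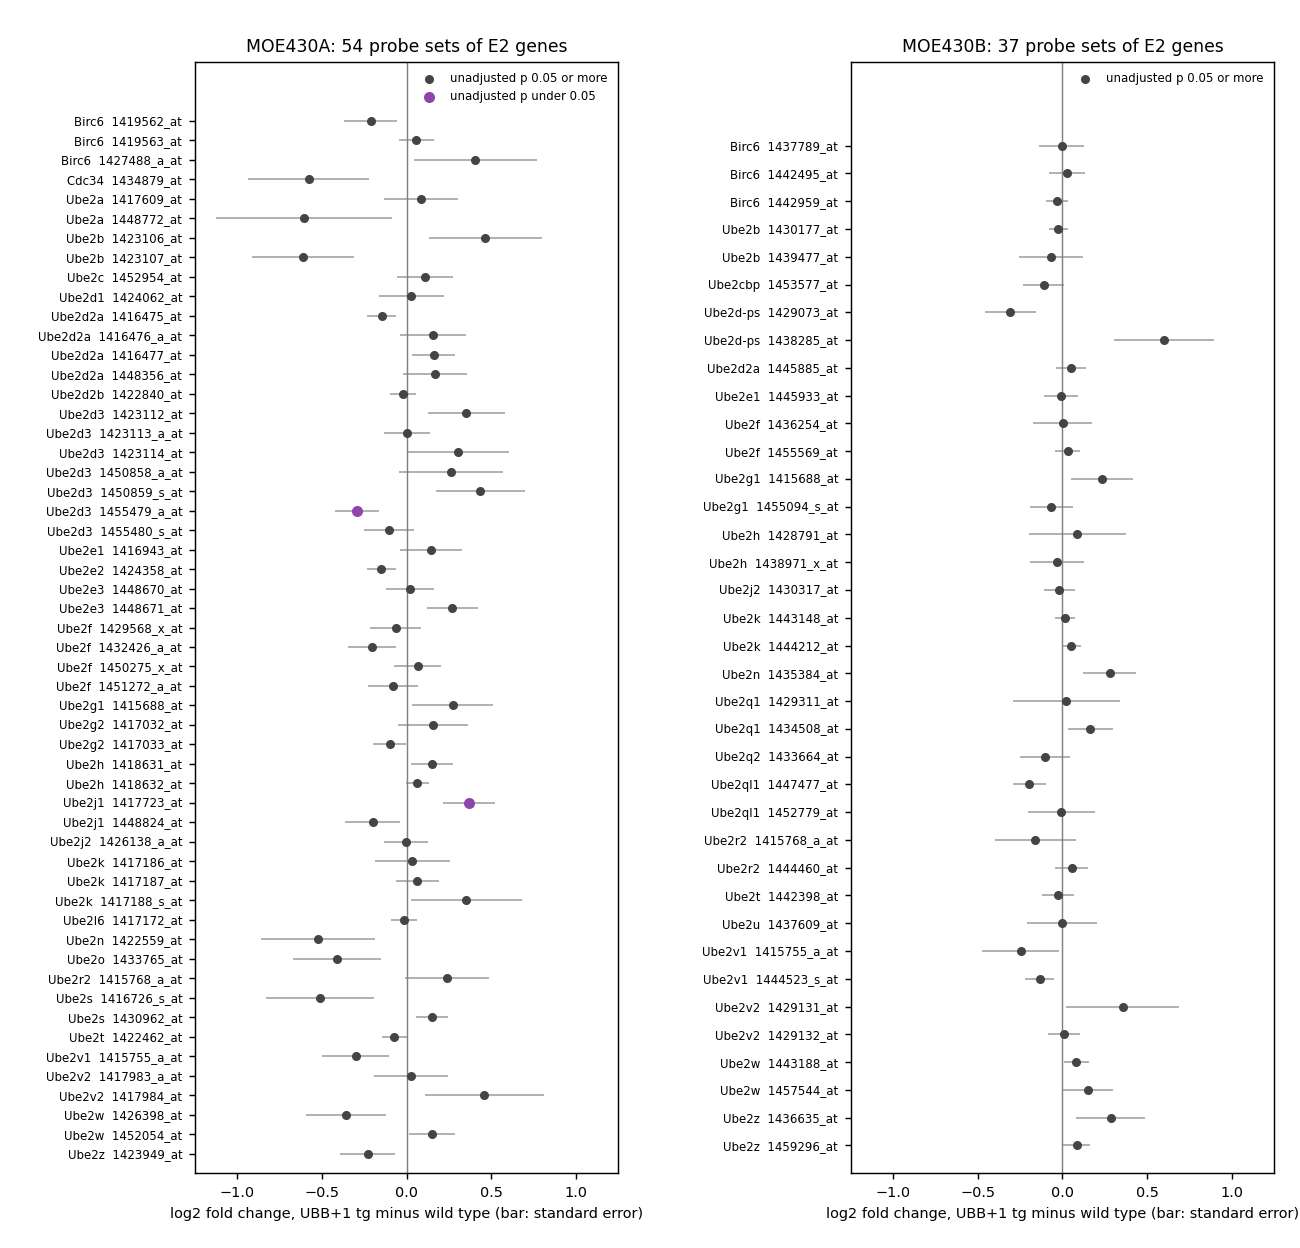
Genotype difference (UBB+1 tg minus wild type, log2) of the 54 E2 probe sets on MOE430A (left) and the 37 on MOE430B (right), with bars of 1 standard error from limma (6 against 5 and 6 against 6 mice). The fold changes lie between -0.61 and 0.60, and the 2 probe sets with an unadjusted p under 0.05, of Ube2j1 and Ube2d3, are marked in purple.

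Ube2k encodes E2-25K, an E2 enzyme that builds chains through K48 and is known to ubiquitinate UBB+1. Its 5 probe sets had log2 fold changes of 0.01 to 0.35, and none was called. The values below run in the order of the animals, tg270, tg271, tg273, tg274, tg276 and tg277 for UBB+1 tg and wt287, wt289, wt290, wt291, wt321 and, on MOE430B, wt331 for wild type. Probe set 1417186_at of Ube2k was at 9.84, 8.96, 9.61, 10.08, 9.92 and 9.78 in UBB+1 tg, against 9.25, 9.53, 9.37, 10.06 and 10.12 in wild type. The lowest values of both genotypes were those of the low array set, and the genotypes overlapped almost completely. The means were 9.70 ± 0.39 in UBB+1 tg and 9.66 ± 0.40 in wild type (SD, n = 6 and 5), and the log2 fold change was 0.03 (standard error 0.22, 95% interval -0.45 to 0.52, unadjusted p = 0.880, adjusted p = 0.995 in limma).

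Probe set 1417188_s_at, of a kind that can match transcripts of several genes, was at 7.20, 5.70, 5.95, 6.25, 6.29 and 6.69 in UBB+1 tg, against 5.43, 6.39, 5.13, 6.36 and 6.66 in wild type. The wild-type mice of the low array set were the lowest and the UBB+1 tg mouse of the high set was the highest, and the other values were mixed. Its log2 fold change of 0.35 had a standard error of 0.33 (95% interval -0.37 to 1.07, unadjusted p = 0.305 in limma), and it was 0.14 without wt290, 0.18 without tg270 and 0.21 without wt287. Within the middle array set the difference was -0.21, and within the low and the high set it was 0.42 and 0.81. Probe set 1417187_at was at 5.83, 5.39, 5.78, 5.78, 5.67 and 6.19 in UBB+1 tg, against 5.52, 5.75, 5.61, 5.83 and 5.83 in wild type. Its log2 fold change was 0.06 (standard error 0.13, unadjusted p = 0.625 in limma). The 2 probe sets on MOE430B were dim, below the 25th percentile of the array, and lay at 3.24 to 3.38 in UBB+1 tg and 3.18 to 3.40 in wild type for 1444212_at, and at 3.43 to 3.64 in UBB+1 tg and 3.42 to 3.60 in wild type for 1443148_at.

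**Figure D2:**
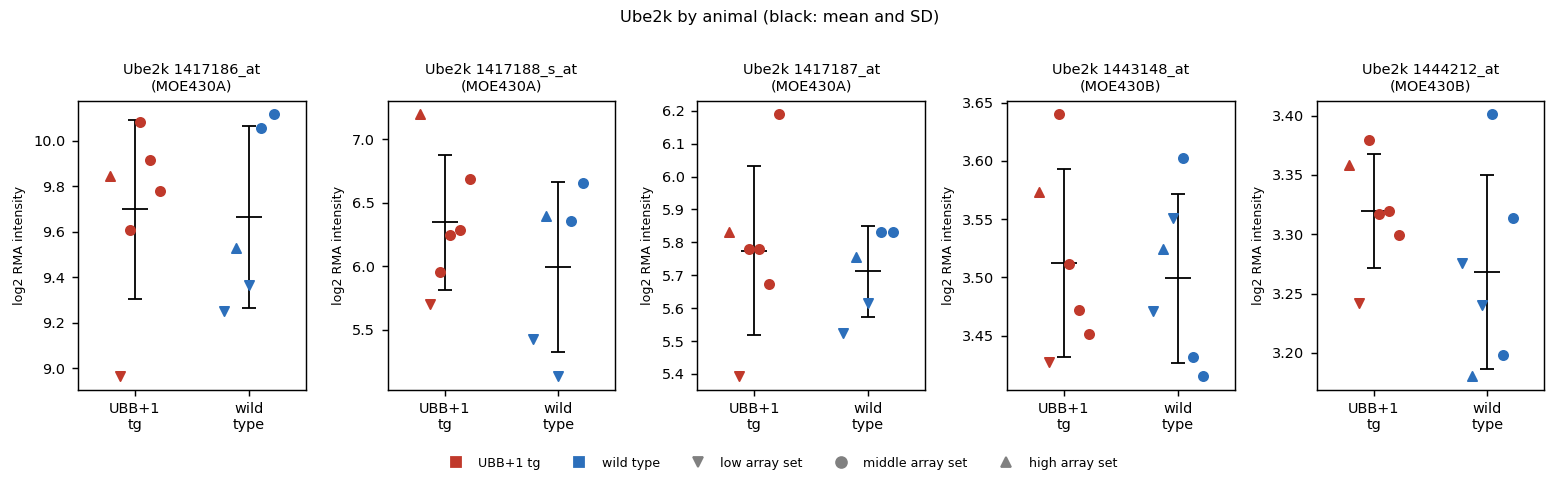
Log2 RMA intensity of the 5 probe sets of Ube2k by animal, with UBB+1 tg (red) left of wild type (blue), black marks for mean and SD, and the symbol for the array set of the animal (n = 6 and 5 on MOE430A, 6 and 6 on MOE430B). In every panel the genotypes overlap, and on 1417186_at the downward triangles of the low array set are the lowest points, at 8.96 in UBB+1 tg and 9.25 and 9.37 in wild type.

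The window around the annotated start of Ube2k is shown because this is the E2 enzyme named for UBB+1, and that of Ube2j1 because its probe set had the lowest p among the E2 genes. Both are RefSeq sequences of GRCm38.p6, from 250 bases before the start to 50 bases after it, on the plus strand: chr5:65536995-65537294 for Ube2k and chr4:33031130-33031429 for Ube2j1. Capitals mark the core GCATGCGC of the site of nuclear respiratory factor 1 in Ube2k, which stands there on both strands in overlapping matches, and TGACNNNGC, the antioxidant response element, on either strand in Ube2j1.
Ube2k: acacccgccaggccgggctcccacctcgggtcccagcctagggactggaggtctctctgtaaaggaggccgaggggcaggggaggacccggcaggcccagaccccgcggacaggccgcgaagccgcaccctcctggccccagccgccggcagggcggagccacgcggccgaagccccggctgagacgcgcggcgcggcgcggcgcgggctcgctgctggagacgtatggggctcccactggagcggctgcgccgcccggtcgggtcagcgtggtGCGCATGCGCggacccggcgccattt
Ube2j1: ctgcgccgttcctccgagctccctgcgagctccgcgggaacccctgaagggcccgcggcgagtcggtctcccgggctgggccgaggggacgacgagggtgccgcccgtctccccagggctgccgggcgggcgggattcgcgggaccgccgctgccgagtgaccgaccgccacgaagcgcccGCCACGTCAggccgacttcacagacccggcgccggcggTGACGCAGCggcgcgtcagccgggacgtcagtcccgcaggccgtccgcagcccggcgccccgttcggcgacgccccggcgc

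A promoter window was at hand for 29 of the 35 genes, 38 windows in all. TGACNNNGC was found on either strand in 7 of these 38 windows (18.4%), beside 12.4% of 32851 windows, and GCATGCGC in 2 (5.26%), of Ube2k and Birc6, beside 2.71%. The heat shock element core GAANNTTC, which 7.86% of all windows hold, was in none of the 38. The median GC content was 68.8% in the E2 windows and 52.7% in all windows. These matches describe letters and were not set against the expression values.

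Among the E2 enzymes of the endoplasmic reticulum membrane, Ube2j1, which serves the degradation of misfolded proteins of the endoplasmic reticulum, had the lowest p of all E2 genes. Probe set 1417723_at of Ube2j1 was at 9.89, 9.61, 10.17, 9.62, 10.02 and 10.27 in UBB+1 tg, against 9.34, 9.80, 9.27, 9.84 and 9.54 in wild type. Each of the 6 UBB+1 tg values exceeded the mean of the wild-type mice, but tg271 and tg274 were below wt289 and wt291. The means were 9.93 ± 0.28 in UBB+1 tg and 9.56 ± 0.26 in wild type (SD, n = 6 and 5), so that the log2 fold change was 0.37 (standard error 0.15, 95% interval 0.04 to 0.71, unadjusted p = 0.0333, adjusted p = 0.984 in limma). The difference was 0.31 in the low, 0.33 in the middle and 0.09 in the high array set. The other probe set of Ube2j1, 1448824_at, was at 6.43, 6.61, 6.30, 6.49, 6.70 and 6.27 in UBB+1 tg, against 6.99, 6.21, 6.54, 7.14 and 6.46 in wild type, and its log2 fold change was -0.20 (standard error 0.16), or -0.08 without wt291, -0.12 without wt287 and -0.31 without wt289. The 2 probe sets of this gene thus ran in opposite directions. In the group, with Ube2j2 and Ube2g2, 2 of 5 probe sets were higher and 3 lower in UBB+1 tg on MOE430A (1 and 4 with array sets as a block), and the only one on MOE430B, of Ube2j2, was at -0.02.

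The largest group was that of E2 enzymes that start chains on many substrates, Ube2d1, Ube2d2a, Ube2d2b, Ube2d3, Ube2e1, Ube2e2, Ube2e3 and Ube2w. Ube2h was counted with them, without a claim that it shares this role. On MOE430A the group had 21 probe sets, 15 higher and 6 lower, at a median log2 fold change of 0.14. With array sets as a block, 13 were higher and 8 lower, at a median of 0.06. The probe sets of Ube2h were at 0.15 and 0.06 on MOE430A and at 0.09 and -0.03 on MOE430B. On MOE430B 4 of 6 probe sets of the group were higher, at a median of 0.07. Ube2d3, which works with many E3 ligases, had the second lowest p on MOE430A, in the other direction. Probe set 1455479_a_at of Ube2d3 was at 7.67, 7.73, 7.62, 8.03, 7.34 and 7.81 in UBB+1 tg, against 8.20, 7.77, 8.21, 7.98 and 7.81 in wild type. The 2 highest values were the wild-type mice of the low array set, and 5 of 6 UBB+1 tg mice were below the wild-type mean. The means were 7.70 ± 0.23 in UBB+1 tg and 7.99 ± 0.21 in wild type (SD, n = 6 and 5), so that the log2 fold change was -0.29 (standard error 0.13, unadjusted p = 0.0444, adjusted p = 0.984 in limma). The other 6 probe sets of Ube2d3 had log2 fold changes of 0.44, 0.35, 0.31, 0.26, 0.00 and -0.11, so that 5 of its 7 probe sets were higher in UBB+1 tg while the one with the lowest p was lower. The 5 include the probe set at 0.00, 1423113_a_at, whose sign turned in 5 of the fits with 1 mouse left out. Those at 0.44, 0.35, 0.31 and 0.26 were at 0.25, 0.19, 0.12 and 0.10 without wt287.

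Within the same group, probe set 1448671_at of Ube2e3, a gene with a dim signal there, was at 4.58, 4.09, 4.39, 4.46, 4.70 and 4.75 in UBB+1 tg, against 4.17, 4.09, 4.17, 4.70 and 4.0 in wild type. The wild-type mouse wt291 was at the level of the highest UBB+1 tg mice, and the other 4 wild-type mice were, like tg271, at 4.0 to 4.17. The log2 fold change was 0.27 (standard error 0.15, unadjusted p = 0.0941 in limma), while the bright probe set 1448670_at of Ube2e3, at 9.59 ± 0.21 in UBB+1 tg and 9.57 ± 0.27 in wild type (SD), gave 0.02. Probe set 1416475_at of Ube2d2a, a close relative of Ube2d3, was at 5.52, 5.67, 5.73, 5.36, 5.49 and 5.43 in UBB+1 tg, against 5.81, 5.55, 5.73, 5.67 and 5.64 in wild type, and its log2 fold change was -0.15 (standard error 0.08, unadjusted p = 0.104 in limma). The lowest 4 values were UBB+1 tg mice, and the other 3 probe sets of Ube2d2a on that array were at 0.16, 0.16 and 0.17. Ube2e2, with a single probe set, was at -0.15 (standard error 0.09).

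**Figure D3:**
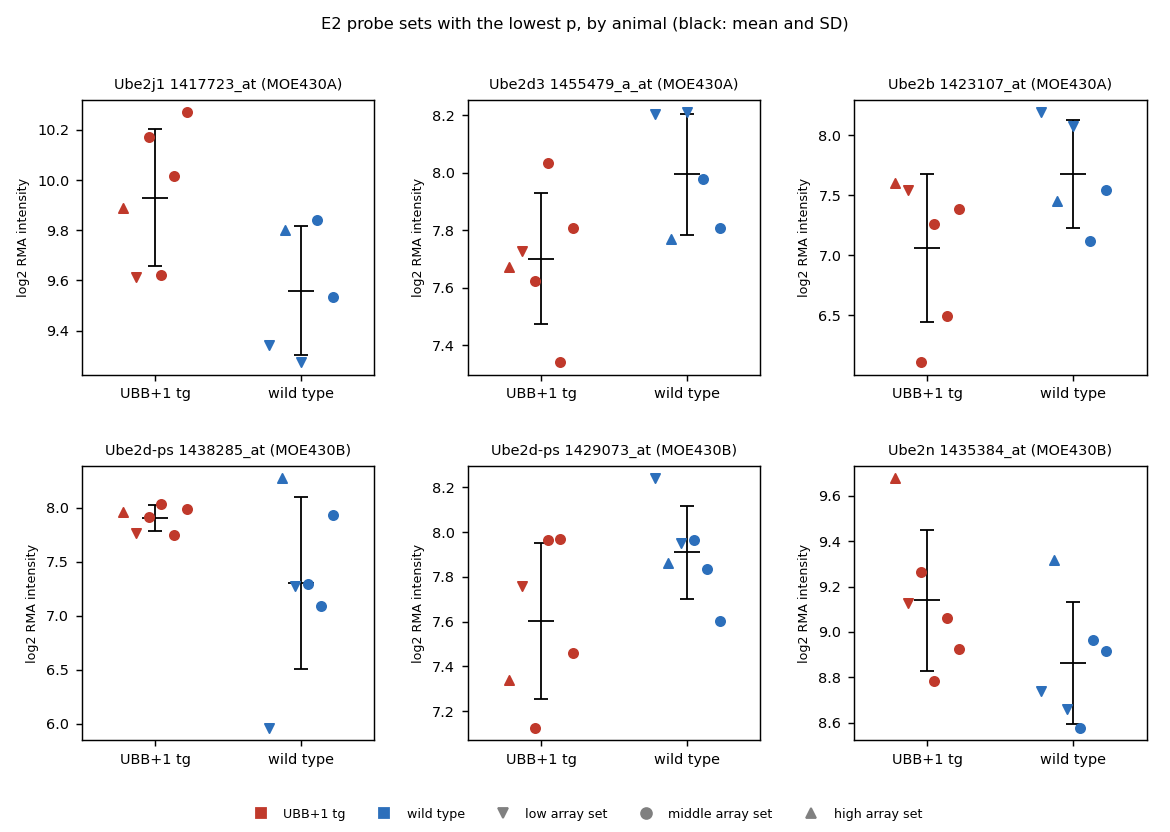
Log2 RMA intensity by animal of the 3 E2 probe sets with the lowest p on MOE430A (top) and of 3 of the 4 lowest on MOE430B (bottom), UBB+1 tg (red) left of wild type (blue), with mean and SD in black and symbols for the array set. The genotypes overlap in every panel, and for Ube2d-ps 1438285_at the UBB+1 tg values span 7.75 to 8.03 while the wild-type values span 5.96 to 8.28.

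Ube2b and Ube2a encode the mouse counterparts of yeast Rad6, which ubiquitinate histones and act in DNA damage tolerance, and both had probe sets that disagreed. Probe set 1423107_at of Ube2b was at 7.60, 7.54, 6.11, 7.26, 6.49 and 7.38 in UBB+1 tg, against 8.19, 7.45, 8.08, 7.12 and 7.55 in wild type. Each UBB+1 tg value was below the mean of the wild-type mice, tg273 and tg276 were the lowest of all, and wt287 and wt290 of the low array set were the highest. The means were 7.06 ± 0.62 in UBB+1 tg and 7.68 ± 0.45 in wild type (SD, n = 6 and 5), so that the log2 fold change was -0.61 (standard error 0.30, 95% interval -1.27 to 0.05, unadjusted p = 0.0654, adjusted p = 0.984 in limma). Probe set 1423106_at of Ube2b was at 9.62, 9.20, 9.87, 10.39, 10.17 and 10.87 in UBB+1 tg, against 8.72, 9.91, 9.04, 9.93 and 10.17 in wild type. Here wt287 and wt290 were the lowest of all, and the log2 fold change was 0.47 (standard error 0.33, unadjusted p = 0.190 in limma), or 0.26 without wt287 and 0.29 without tg277. The fold changes of the 2 probe sets of this gene were 1.08 log2 units apart, the widest gap of any E2 gene on either array, while the 2 probe sets of Ube2b on MOE430B were at -0.02 and -0.07.

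For Ube2a, probe set 1448772_at was at 8.97, 9.02, 6.60, 7.61, 6.86 and 6.83 in UBB+1 tg, against 9.07, 8.64, 8.61, 7.64 and 7.30 in wild type. The 6 mice of the middle array set, 4 UBB+1 tg and 2 wild type, were at 6.60 to 7.64 and the other 5 mice at 8.61 to 9.07. The log2 fold change was -0.61 (standard error 0.52, unadjusted p = 0.269 in limma), or -0.40 without tg273 or without wt287, and that of the other probe set, 1417609_at, was 0.09 (standard error 0.22). The difference between the probe sets of Ube2b, 1423106_at minus 1423107_at, was 3.13 to 3.76 log2 units in UBB+1 tg mice and 2.62 and 2.81 in wild-type mice of the middle array set. It was 1.66 in the UBB+1 tg mouse and 0.53 and 0.96 in the wild-type mice of the low set, and 2.02 in the UBB+1 tg mouse and 2.46 in the wild-type mouse of the high set. For Ube2a, 1417609_at minus 1448772_at was 1.61 to 2.53 in UBB+1 tg and 1.62 and 2.08 in wild type within the middle set, and -0.48 to 0.64 in the 5 other mice. The contrast between 2 probe sets of 1 gene thus moved with the array set. The part of the 3'-5' difference in these values was not tested, and the positions of the probes in the transcripts were not analysed here.

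**Figure D4:**
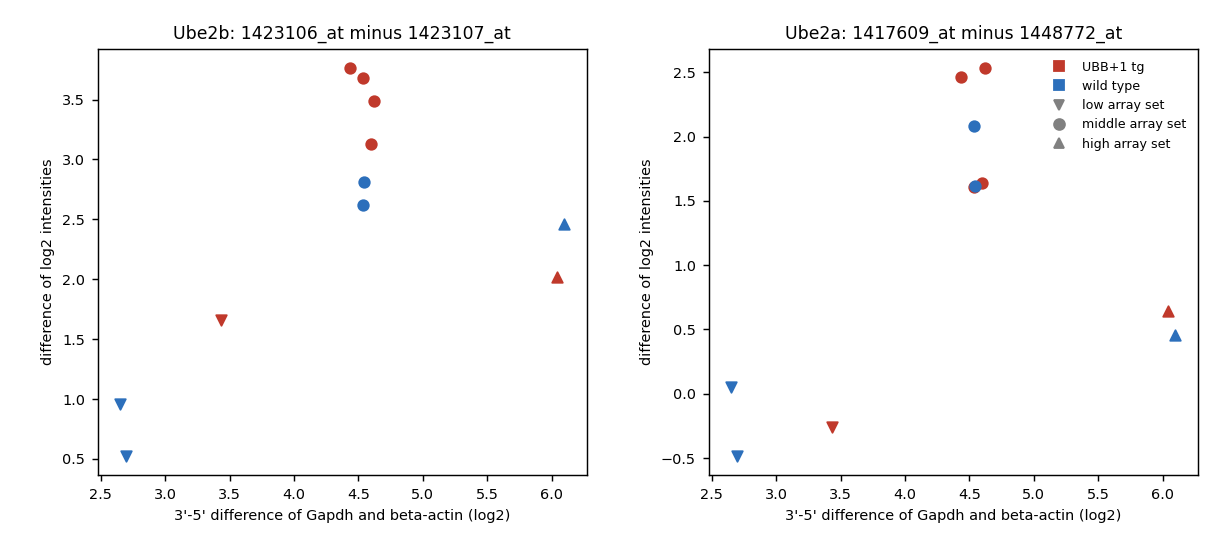
Difference between 2 probe sets of Ube2b (left) and of Ube2a (right) in log2 units on MOE430A, 1 point per animal (6 UBB+1 tg in red, 5 wild type in blue), against the 3'-5' difference of Gapdh and β-actin in log2 units. The middle array set holds the highest values in both panels, 2.62 to 3.76 for Ube2b and 1.61 to 2.53 for Ube2a.

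Of 14 E2 genes with several probe sets on MOE430A, 10 had probe sets in both directions, and of 14 on MOE430B, 5 did. The share over all genes with several probe sets was not computed, so that these counts show no trait of E2 genes. Ube2d-ps, annotated as a non-coding RNA in RefSeq, held both of the lowest p among the E2 genes of MOE430B, in opposite directions. Probe set 1438285_at of Ube2d-ps was at 7.96, 7.77, 7.92, 8.03, 7.75 and 7.99 in UBB+1 tg, against 5.96, 8.28, 7.27, 7.29, 7.09 and 7.93 in wild type. The UBB+1 tg values were close together, while the wild-type values enclosed them, with wt287 far below and wt289 above. The means were 7.90 ± 0.12 in UBB+1 tg and 7.30 ± 0.80 in wild type (SD, n = 6 each), so that the log2 fold change was 0.60 (standard error 0.29, 95% interval -0.04 to 1.24, unadjusted p = 0.0628, adjusted p = 1.00 in limma), which was 0.33 without wt287. Probe set 1429073_at of Ube2d-ps was at 7.34, 7.76, 7.12, 7.96, 7.97 and 7.46 in UBB+1 tg, against 8.24, 7.86, 7.95, 7.97, 7.84 and 7.60 in wild type. Of the UBB+1 tg mice, 3 lay below all wild-type values, and the log2 fold change was -0.31 (standard error 0.15, unadjusted p = 0.0668 in limma).

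Ube2n, which builds chains through K63 with the inactive E2 variants Ube2v1 and Ube2v2, was measured on both arrays, with opposite signs. Probe set 1435384_at of Ube2n on MOE430B was at 9.68, 9.13, 9.26, 8.78, 9.06 and 8.92 in UBB+1 tg, against 8.74, 9.32, 8.66, 8.58, 8.96 and 8.91 in wild type, and its log2 fold change was 0.28 (standard error 0.155, unadjusted p = 0.0959 in limma), or 0.17 without tg270. The highest mouse of each genotype was that of the high array set, and the difference was 0.43, 0.19 and 0.36 within the low, middle and high sets. Probe set 1422559_at of Ube2n on MOE430A was at 8.14, 8.54, 7.89, 7.64, 7.38 and 7.75 in UBB+1 tg, against 9.20, 8.33, 9.24, 7.83 and 7.45 in wild type, and its log2 fold change was -0.52 (standard error 0.34), or -0.32 without wt287 and -0.31 without wt290. Its highest values were those of wt287 and wt290 in the low array set, and within the middle set the difference was 0.02. Probe set 1444523_s_at of Ube2v1 was at 11.02 ± 0.15 in UBB+1 tg and 11.15 ± 0.14 in wild type (SD, n = 6 each), and its log2 fold change was -0.14 (standard error 0.09). For Ube2v2 the 4 probe sets were at 0.01 to 0.46. Over this group 2 of 4 probe sets were higher in UBB+1 tg on MOE430A and 3 of 5 on MOE430B, and with array sets as a block 1 of 4 and 2 of 5.

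Ube2ql1, a little characterised relative of the Ube2q enzymes, had the third lowest p on MOE430B: probe set 1447477_at was at 5.51, 5.53, 5.69, 5.72, 5.71 and 5.38 in UBB+1 tg, against 5.61, 5.57, 5.99, 5.69, 6.06 and 5.79 in wild type. The 6 UBB+1 tg values were all below the mean of the wild-type mice, and the values overlapped between 5.57 and 5.72. The log2 fold change was -0.19 (standard error 0.10, unadjusted p = 0.0730 in limma), and that of the brighter probe set 1452779_at of Ube2ql1 was -0.01 (standard error 0.20). With Ube2q1, Ube2q2, Ube2u, Ube2cbp and Ube2d-ps, which have no shared role, 3 of 9 probe sets were higher and 6 lower in UBB+1 tg (4 and 5 with array sets as a block).

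Of the E2 enzymes that build chains through K48, Ube2g2 was counted above with the endoplasmic reticulum, with probe sets at 0.16 and -0.10 on MOE430A. The others of this group, Cdc34, Ube2r2, Ube2g1 and Ube2k, were higher in UBB+1 tg for 5 of 6 probe sets on MOE430A. On MOE430B 4 of 6 were higher, and none was called on either array. With array sets as a block these counts were 3 of 6 and 4 of 6, as Ube2k 1417186_at and 1417187_at then stood at -0.16 and -0.02. The exception on MOE430A without the block was Cdc34, the E2 enzyme of cullin-RING ligases, at 7.78, 8.57, 8.02, 7.55, 7.28 and 7.19 in UBB+1 tg, against 9.02, 8.39, 9.15, 7.47 and 7.52 in wild type. The wild-type mice of the low and the high array set were high and those of the middle set were at the level of the UBB+1 tg mice of that set. The log2 fold change of Cdc34 was -0.58 (standard error 0.36, unadjusted p = 0.134 in limma), or -0.37 without wt290. Of the E2 enzymes of other modifiers, Ube2f passes on NEDD8, Ube2l6 passes on ISG15, and Ube2z takes ubiquitin and FAT10 from the E1 enzyme Uba6. They were lower for 5 of 6 probe sets on MOE430A, at -0.23 to 0.06, and higher for 4 of 4 on MOE430B, at 0.001 to 0.28, and with array sets as a block they were lower for 4 of 6 and higher for 3 of 4. Ube2c and Ube2s, the E2 enzymes of the anaphase-promoting complex in dividing cells, had 3 probe sets at -0.51, 0.11 and 0.15. Birc6 and Ube2o, large proteins that join the E2 fold with E3 activity, had 4 probe sets on MOE430A at -0.41 to 0.41, and the 3 of Birc6 on MOE430B were at -0.03 to 0.02. Ube2t, which serves the Fanconi anemia pathway of DNA repair, had probe sets at -0.07 and -0.02.

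The spread over animals was wide for E2 genes. The range over all animals exceeded 1 log2 unit for 24 of 54 E2 probe sets on MOE430A (44.4%), beside 32.2% of all probe sets, and for 15 of 37 on MOE430B (40.5%), beside 22.1%. It exceeded 2 units for 6 on MOE430A (11.1%), beside 5.28%, and for 2 on MOE430B (5.41%), beside 2.95%. The widest was that of probe set 1417984_at of Ube2v2, at 7.0, 6.29, 6.73, 6.58, 7.88 and 7.22 in UBB+1 tg, against 5.32, 7.14, 6.34, 6.58 and 7.07 in wild type, a range of 2.56. A single wild-type mouse of the low array set, wt287, was well below all other mice. The log2 fold change of this probe set was 0.46 (standard error 0.35), or 0.17 without wt287 and 0.27 without tg276.

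The middle array set differed from the low set by more than UBB+1 tg differed from wild type for 41 of 54 E2 probe sets on MOE430A (75.9%), beside 72.6% of all, and for 27 of 37 on MOE430B (73.0%), beside 76.2%. The sets were found in the values, so that a difference between them is fixed by their choice, and only its size is given. The median size of the difference between the middle and the low set was 0.36 log2 units on MOE430A, against 0.16 for the genotype difference of the same E2 probe sets, and over all probe sets these medians were 0.18 and 0.09. On MOE430B the medians were 0.18 and 0.07 for the E2 probe sets and 0.17 and 0.07 over all, so that E2 genes were close to the array there. The largest on MOE430A were those of Ube2a 1448772_at at -1.71, Cdc34 at -1.32, Ube2n 1422559_at at -1.27 and Ube2b 1423106_at at 1.19, and each had a genotype difference of the same sign. On MOE430B the largest were those of Ube2v2 1429131_at at 0.99, Ube2q1 1429311_at at 0.85, Ube2r2 1415768_a_at at 0.80 and Ube2h 1428791_at at -0.73. Their genotype differences were 0.36, 0.02, -0.16 and 0.09, so that the signs were mixed. Low set mice made up 2 of the 5 wild-type arrays and 1 of the 6 UBB+1 tg arrays on MOE430A. The part of the array sets in the genotype differences was not tested.

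**Figure D5:**
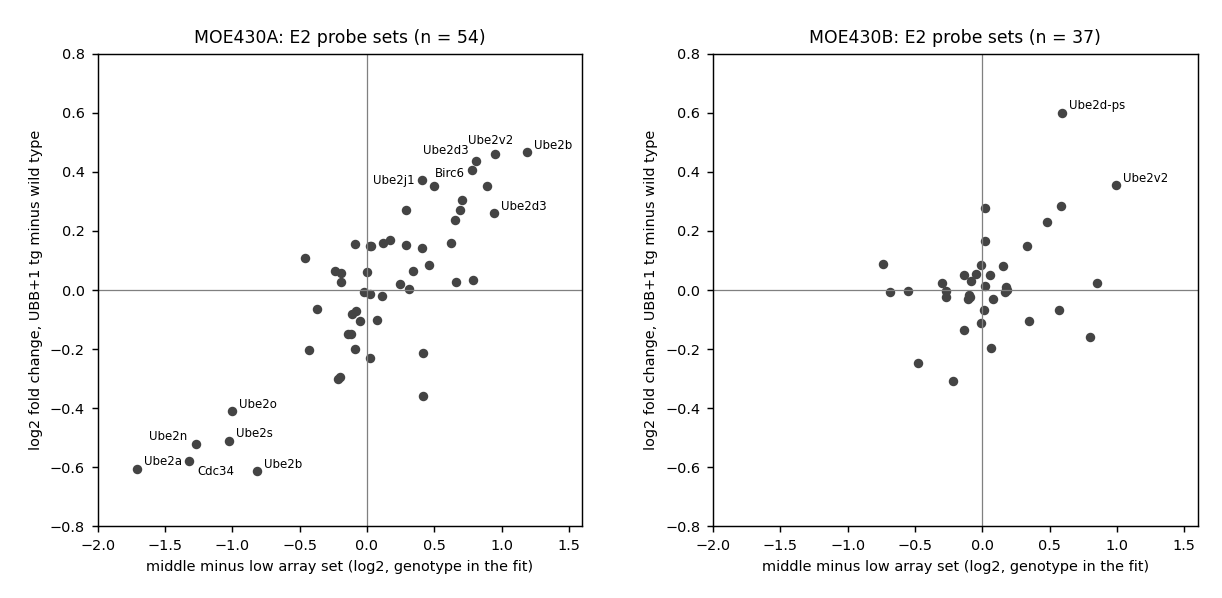
Log2 fold change of UBB+1 tg against wild type (vertical) and difference of the middle against the low array set (horizontal, log2 units, from a fit that holds genotype) for the 54 E2 probe sets of MOE430A and the 37 of MOE430B, 1 point each. The E2 probe sets with fold changes beyond -0.4, of Ube2a, Ube2b, Cdc34, Ube2n, Ube2s and Ube2o, lie at -0.81 to -1.71 on the horizontal axis.

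In a limma fit that holds the array set as a block, 4 of 54 E2 probe sets were at an unadjusted p under 0.05 on MOE430A (7.41%), beside 7.19% of all, and all 4 were lower in UBB+1 tg, beside 3.42%. They were others than the 2 without the block. Ube2w, which puts ubiquitin on the N terminus of substrates, was at -0.48 (standard error 0.18, unadjusted p = 0.0204), Birc6 1419562_at at -0.31, Ube2z 1423949_at at -0.25 and Ube2v1 1415755_a_at at -0.27, with adjusted p of 0.685 to 0.690. This probe set of Ube2w, 1426398_at, was at 7.93, 8.24, 8.12, 8.66, 9.01 and 9.16 in UBB+1 tg, against 8.97, 8.51, 8.63, 9.13 and 9.15 in wild type, with 3 UBB+1 tg mice below all wild-type mice. With the block, the other probe sets of Ube2w were at 0.09 on MOE430A and at 0.06 and 0.09 on MOE430B. Those of Birc6 were at 0.19 and 0.11 on MOE430A and at -0.04, 0.08 and 0.04 on MOE430B. Those of Ube2z on MOE430B were at 0.19 and 0.09, and those of Ube2v1 on MOE430B at -0.11 and -0.17. On MOE430B 1 of 37 was called (2.7%), beside 5.06% of all, or 2.38% for higher ones: Ube2n 1435384_at at 0.27 (standard error 0.10, adjusted p = 0.900). Ube2j1 1417723_at was at 0.28 and Ube2d3 1455479_a_at at -0.25 with the block, with unadjusted p of 0.050 and 0.075 in limma.

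Of the E2 genes, 3 have a probe set that both arrays hold, so that the same RNA was measured on each. For Ube2v1 1415755_a_at the log2 fold change in the 11 shared animals was -0.30 on MOE430A and -0.26 on MOE430B, and after centring the arrays no animal differed by more than 0.23 between them. For Ube2g1 1415688_at, an E2 enzyme of the K48 group, it was 0.27 and 0.21, with a largest gap of 0.27. For Ube2r2 1415768_a_at, a relative of Cdc34, it was 0.24 and -0.07, with a largest gap of 0.57 in wt287, and -0.16 on MOE430B with wt331, whose value of 9.08 was above the other wild-type mice at 8.21 to 8.80. The sign of a difference of this size was thus kept between the arrays for 2 of the 3 probe sets.

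Other genes of the pathway were also not called in limma. They come from a list by role, made with earlier results of these data known. Of the E1 enzymes and their partners, which activate ubiquitin and its relatives, 6 of 9 genes were measured by 20 probe sets, 12 higher and 8 lower in UBB+1 tg, with 0 at an unadjusted p under 0.05 in limma and a median log2 fold change of 0.07. Uba6 1428944_at, an E1 enzyme that charges Ube2z, was at 0.45 (standard error 0.25), and Uba3 1435164_s_at, the catalytic subunit of the NEDD8 E1 enzyme, at 0.54 (standard error 0.39). These were the highest probe sets of either gene, and with array sets as a block they were at 0.35 and 0.27. The other probe sets of Uba6 were at -0.02, 0.10, 0.15 and -0.01, and those of Uba3 at 0.50 and 0.13. The study, which used another program (ChipInspector), lists Uba3 among the genes of the ubiquitin system that it reports as regulated in CA3. Of 10 probe sets for 6 other proteins with an E2-like fold, 7 were higher and 3 lower, with 0 at that p. Trip12, an E3 ligase that acts on UBB+1, had 7 probe sets, 6 higher and 1 lower, of which 1423898_a_at was at 0.24 (standard error 0.14, unadjusted p = 0.108 in limma).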

How the data were processed

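CA3 was cut by laser from brain sections of UBB+1 tg and wild-type mice, and RNA was amplified and hybridised to Affymetrix MOE430A and MOE430B arrays. The authors normalized each kind of array with RMA (version not given in the sources used here). Deposited values were linear intensity in whole numbers on MOE430A, turned to log2 here, and log2 on MOE430B. Genotypes came from the labels. Without 64 controls per array and the transgene probe set, UBB+1 tg was compared with wild type in limma 3.58.1 (R 4.3.3) by lmFit and eBayes, per array, with Benjamini-Hochberg adjustment over all probe sets. Each limma p-value sets the genotype difference against the spread between animals. With 1 array of amplified RNA per mouse on each array type, that spread also holds differences of amplification and array. The E2 genes, gene lists and tests were chosen with earlier results of these data known. All animals' values are given for Ube2k and for up to 5 E2 probe sets per array with the smallest p; those of further probe sets were chosen after they were seen. Array sets are complete-linkage clusters on 1 minus Pearson r. Gene positions matched RefSeq by gene ID for 35 genes. The fit was tested on simulated data.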

Additional observations from a re-analysis of the deposited data

Results flagged for a closer look

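In a search of 30 groups of animals, over the E2 probe sets whose values are named by rank of p or belong to Ube2k, for 1 value far from the rest, 1 was found, and chance alone gives about 1 in 20 groups. In wild-type mouse wt291, probe set 1448671_at of Ube2e3 was at 4.70, while the other wild-type mice were at 4.0 to 4.17 (the gap was 0.757 of the range). Without wt291 the log2 fold change of this dim probe set was 0.39, against 0.27 with it.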

How the results depend on the processing

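On MOE430A, 2 E2 probe sets were at an unadjusted p under 0.05. The count was 0 with trend and robust variance in eBayes, with a covariate for the 3'-5' difference, after averaging the probe sets of each gene, and in the middle array set, and 4 when array sets were a block. Leaving out 1 mouse gave 0 to 4: 0 without tg276, wt287 or wt290, 1 without tg273 and 4 without wt291. On MOE430B the count of 0 became 1 with the block, 4 in the middle set alone, among them Ube2v2, Ube2h, Birc6 and Ube2d-ps, and 2, both of Ube2d-ps, in the animals on both arrays. Leaving out 1 mouse gave 0 to 3: 3 without wt289, 2 without tg271, tg274 or wt331, and 1 without tg270, tg276 or wt287. Over all probe sets of MOE430B, 1 passed the false discovery rate with the 3'-5' covariate, with averaging per gene and without wt291, in place of 0, and leaving out 1 mouse gave 0 to 1. The median log2 fold change of the E2 probe sets on MOE430B was 0.03 with the covariate, against 0.001, and -0.0035 in the animals on both arrays, and leaving out 1 mouse gave -0.003 to 0.03. On MOE430A the median of 0.03 changed sign, to -0.01 with the block, -0.02 in the middle set and -0.005 with averaging per gene, and leaving out 1 mouse gave -0.01 to 0.06, below 0 without tg277 or wt287.

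Ube2k changed sign: 1417186_at was at -0.058 with the covariate, -0.16 with the block and -0.24 in the middle set, 1417187_at at -0.019 with the block, 1417188_s_at at -0.21 in the middle set, and 1443148_at at -0.0035 in the animals on both arrays. Leaving out 1 mouse gave -0.069 to 0.18 for 1417186_at, -0.0197 to 0.14 for 1417187_at, 0.14 to 0.52 for 1417188_s_at and -0.012 to 0.034 for 1443148_at. For the single probe sets, 265 values kept their direction and 14, all of Ube2k, did not. The 265 include settings that cannot change a fold change, such as leaving out dim probe sets or trend and robust variance. Probe sets of other genes were chosen for their low p in these same data. A kept direction was therefore largely set in advance. The 3'-5' difference between genotypes with 1 mouse left out was 0.14 to 1.00 (MOE430A) and 0.27 to 1.07 (MOE430B), and that of the transgene probe set was 2.31 to 2.49. The cause of these changes was not tested. No paired analysis was possible because no mouse number occurs in both UBB+1 tg and wild type and no label names a litter. Signal over background limits the dim probe sets, 6 of 54 on MOE430A and 10 of 37 on MOE430B.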
